A study of Mus musculus with 6 samples.

Results

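The Emx2 Sim2 mesenchyme of Day 2 cultures was defined here by a gate on measured counts, namely at least 1 unique molecular identifier (UMI, one captured transcript molecule) of *Emx2*, at least 1 of *Sim2* and fewer than 2 of *Tnmd*. Among cells with at least 3000 UMIs, at most 7500 detected genes and at most 25% mitochondrial UMIs, 132 of 18691 Day 2 cells met it, 73 of 8949 in replicate A and 59 of 9742 in replicate B, out of 54126 such cells in all 6 libraries. Because *Emx2*, *Sim2* and *Tnmd* chose the cells, their levels are given as a description and are not tested. The cultures, called digits in a dish (DID), were seeded with dissociated distal forelimb mesenchyme of E11.5 embryos of the outbred CD-1 strain, with no genetic modification or added treatment in the labels, and single-cell libraries were made on Day 2, Day 7 and Day 10, each time from 2 independent cultures named replicates A and B. Each culture pools cells from several embryos, so differences between embryos cannot be seen.

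*Emx2* encodes a homeodomain transcription factor known for its roles in the forebrain, the urogenital system and the shoulder girdle, and *Sim2* encodes a bHLH-PAS transcription factor that has also been described in muscle precursors of the limb. In the limb bud, MEIS and SHOX2 factors mark proximal segments, HOXA13 and HOXD13 mark the autopod that forms the hand, TBX2 and TBX3 are patterning factors of the limb margins, and SCX marks progenitors of tendon, which later express the membrane protein tenomodulin encoded by *Tnmd*. *Emx2* lies at chr19:59458372-59465357 on the plus strand and *Sim2* at chr16:94084931-94127032 on the plus strand, in GRCm38 coordinates.

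The gate is loose. *Emx2* stood at exactly 1 UMI in 40 of 73 cells of replicate A and 32 of 59 of replicate B, *Sim2* at 1 UMI in 33 and 27, and both at 1 UMI in 17 and 19. The highest count in a single cell was 7 for *Emx2* and 9 for *Sim2*. Levels are given as the UMIs of a gene per 1000000 UMIs of a class in a library (CPM). On this scale *Emx2* stood at 54.6 and 51.8 (replicates A and B) against 5.57 and 8.07 in the other Day 2 cells, and *Sim2* at 63.9 and 68.5 against 4.17 and 5.66. *Tnmd* was at 0 in 66 and 51 of the cells and at 1 UMI in 7 and 8. Just outside the limit, 26 and 30 cells carried *Emx2*, *Sim2* and 2 or more UMIs of *Tnmd*. In these excluded cells *Scx* stood at 343 and 340 CPM, against 313 and 231 in gated cells with no *Tnmd* UMI, and *Shox2* at 449 and 557 against 334 and 414.

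Both genes were detected in the same cell more often than their separate frequencies give within bins of equal depth. In replicate A, *Emx2* was detected in 6.4% of cells and *Sim2* in 5.56%, and 99 cells carried both where 49.1 would if the genes were unrelated within 10 depth bins, which is a Mantel-Haenszel odds ratio of 2.66. Replicate B had 89 such cells against 52.5, an odds ratio of 2.11. At the later time points the odds ratio was 1.31 and 1.94 at Day 7 and 2.17 and 2.56 at Day 10. Of the Day 2 cells with both genes, 26.3% and 33.7% held 2 or more *Tnmd* UMIs, against 5.10% and 4.71% of all cells. These ratios describe cells of single libraries and carry no test. They use the genes that define the gate, so they are no separate support for the class.

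The gated cells made up 0.816% of replicate A (exact binomial 95% interval 0.640 to 1.02%) and 0.606% of replicate B (0.461 to 0.781%), on average 0.711% ± 0.149 (SD, n = 2). At Day 7 the same gate held 7 and 10 cells, and at Day 10 it held 27 and 29, which is 0.323% (0.213 to 0.470%) and 0.347% (0.233 to 0.498%). The interval of Day 2 replicate B reached into those of Day 10. These intervals cover counting error only. The share depends on depth, since a cell must yield a UMI of each of a pair of scarce transcripts. After every cell was thinned to 3000 UMIs, 2 and 9 cells passed the gate at Day 2, 0 and 1 at Day 7 and 1 in each library of Day 10, and with a minimum of 10000 UMIs per cell the shares were 0.915% and 1.0%, so the order of the replicates turns with the depth limit.

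**Figure D1:**
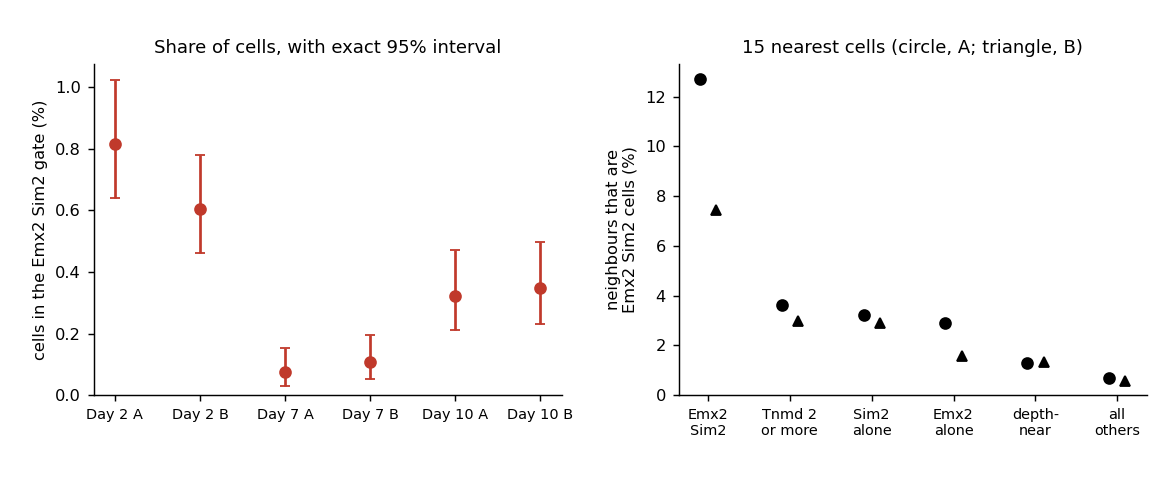
Left, share of cells in the Emx2 Sim2 gate (percent) in each of the 6 libraries, with exact binomial 95% intervals as bars. Right, share of the 15 nearest cells that are Emx2 Sim2 cells (percent) around cells of 6 classes, 1 point per Day 2 replicate. The Day 2 shares of 0.816% and 0.606% stand above those of Day 7 and Day 10, and Emx2 Sim2 cells take up a larger share of the neighbours of Emx2 Sim2 cells, 12.7% and 7.46%, than of those of any other class shown.

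The cells were deep. Their median was 35634 and 34274 UMIs, against 19390 and 12770 in the other cells, with a median of 6123 and 5784 detected genes. The kept cells of Day 2 held 206448286 and 166797398 UMIs in all, and the gated cells 2583152 and 2028625 of them, so a single UMI weighs 0.387 CPM in the gated sum of A and 0.493 CPM in that of B. For this reason the comparison with all other Day 2 cells was also made against depth-near cells, the 5 other cells of the same library closest in UMI total to each gated cell (365 and 295 cells, median 35632 and 34288 UMIs). The mitochondrial share of UMIs was close, 1.73% and 2.24% in the gated cells and 1.86% and 2.20% in the others. Replicates A and B of Day 2 shared 16 cell barcodes.

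Cells of other types were checked from marker lists. Immune cells, taken as cells with at least 10 UMIs of the immune list, should lack both genes, and *Emx2* was seen in 0 of 21 and 0 of 13 of them and *Sim2* in 0 and 1, at a median of 17676 and 14497 UMIs. With so few cells, a count of 0 allows a share of up to 14.3% and 23.1%. The same immune cells held *Scx* in 14.3% and 30.8%, *Shox2* in 28.6% and 15.4% and *Meis2* in 4.76% and 23.1%. *Tbx3* was in 4.76% and 0% of them. A UMI of these genes was thus not confined to mesenchymal cells, and the part of stray RNA in their detection was not tested. Cells with at least 10 UMIs of the myogenic list (444 and 371 cells) had *Emx2* in 2.03% and 5.12% and *Sim2* in 22.7% and 16.2%, and 2 and 3 of the gated cells were among them. At 2 or more UMIs of that list the shares were 13.7% and 15.3% of gated cells, 10.6% and 10.7% of the others and 19.2% and 12.5% of depth-near cells. Of the immune, endothelial and epithelial lists, 5, 3 and 3 genes stood at 0 in the gated cells of replicate A and 5, 4 and 4 in replicate B, and *Trem2*, *Cdh5* and *Krt5* were at 0 in both. Depth-near cells held *Trem2* in 0.548% and 0%, *Cdh5* in 0% and 0% and *Krt5* in 0.274% and 0.339%, so these zeros say little. The endothelial gene *Pecam1* was in 4.11% and 3.39% of gated against 1.64% and 2.03% of depth-near cells, and *Tek* in 1.37% and 0% against 1.37% and 2.03%. The immune list summed to 0.774 and 0.986 CPM in the gated cells against 24.0 and 12.6 in the others, the endothelial list to 2.32 and 1.48 against 1.57 and 1.55, and the epithelial list to 61.6 and 87.7 against 107 and 74.8. The epithelial gene *Epcam* was detected in 9.59% and 10.2% of the gated cells against 5.21% and 4.41% of depth-near cells, and *Fgf8*, a ligand of the limb ridge epithelium, in 6.85% and 11.9% against 1.64% and 1.02%. Neither gene was called (adjusted p 0.858 and 0.0737 in the edgeR test), and the part of such RNA in the results was not tested. The erythroid list summed to 573 CPM in A but 0.493 CPM in B, and 1477 of its 1479 UMIs in A came from 1 cell. The 4 tested genes of this list were called higher through replicate A, as were *Hba-a2* and *Hbb-bs*, and these 6 globin genes are not counted as a property of the class.

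The label names 4 genes for these cells. *Nr2f1*, a COUP-TF nuclear receptor, stood at 24.0 and 25.1 CPM against 6.96 and 7.97 in the other cells, a log2 difference of 1.70 ± 0.20 (SE), and 1.35 against depth-near cells. It was detected in 38.4% and 39.0% of the gated cells and in 9.32% and 8.04% of the others. *Pcp4*, a small calmodulin-binding protein, stood at 82.8 and 36.0 against 31.2 and 38.4, so replicate A was high and replicate B was not. Its log2 difference was 0.77 ± 0.12 in the fit of both libraries, 0.30 against depth-near cells and -0.083 in replicate B alone, and the label is therefore not borne out for *Pcp4* in replicate B. Both genes were chosen for the label with results of these data known, so no test of them is given. *Nr2f1* or *Pcp4* was seen in 54.8% and 50.8% of the gated cells and in 31.0% and 30.5% of depth-near cells.

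Gene expression in the gated cells was compared with that of all other Day 2 cells on UMI sums per library. The quasi-likelihood test of edgeR was used, blocking on library, and a gene was called where its p, adjusted by Benjamini-Hochberg over 16541 genes, fell under 0.05. The test unit is the library (n = 2), and the cells are not replicates. It called 700 genes higher, 4.23% of those tested, and 892 lower, 5.39%, or 9.62% in either direction, with a median log2 difference of -0.04 over all genes. These counts include the 3 genes of the gate. Against depth-near cells, 335 genes (2.76%) were higher and 428 (3.53%) lower of 12119 tested, 6.3% in either direction. Without the block, 441 (2.67%) were higher and 523 (3.16%) lower than in all other cells, or 5.83%. Each gene left 1 residual degree of freedom in the blocked fit, its prior degrees of freedom were infinite and its p-values rest on a spread pooled over all genes. The fit called 23 genes although their differences had opposite signs in replicates A and B.

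The 12 higher genes of largest difference that passed the rule on level and detection were *Lrfn5*, *Pdzrn4*, *Cntn1*, *Caln1*, *Tac1*, *Crym*, *Myh11*, *Sorcs1*, *Tbx3os1*, *Hlx*, *Thsd7b* and *Chodl*. *Lrfn5*, a synaptic adhesion protein, stood at 22.8 and 23.2 CPM in the gated cells and at 1.19 and 1.74 in the others, with no overlap (log2 difference 3.98 ± 0.34, adjusted p 3.37e-29 in the edgeR test). *Tac1*, the precursor of the neuropeptide substance P, stood at 76.7 and 81.3 against 7.95 and 9.41 (3.17 ± 0.13), and it had the highest level of the 12 genes named. It was detected in 37.0% and 32.2% of gated cells and 8.11% and 6.53% of the others. *Pdzrn4*, a PDZ and RING domain protein, stood at 12.8 and 27.1 against 1.10 and 1.60 (3.8 ± 0.36). *Crym*, which binds thyroid hormone in the cytosol, stood at 27.5 and 41.9 against 3.94 and 3.77 (3.11 ± 0.22). Both libraries of these genes lay several fold above both libraries of the other cells, which the choice by direction and size favours in advance.

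Among the other genes named by size, the contactin *Cntn1* differed by 3.33, the calcium-binding protein *Caln1* by 3.24, the sorting receptor *Sorcs1* by 2.75, the homeobox factor *Hlx* by 2.65, the thrombospondin-domain protein *Thsd7b* by 2.64 and the membrane lectin *Chodl* by 2.63 on the log2 scale. *Myh11*, the smooth muscle myosin heavy chain, stood at 36.0 and 21.2 against 3.73 and 3.31 (2.99 ± 0.24), and was detected in 26.0% and 13.6% of gated cells. *Tbx3os1*, an antisense RNA of *Tbx3*, stood at 42.2 and 26.6 against 4.89 and 5.71 (2.69 ± 0.20). All 12 were also called higher against depth-near cells, with log2 differences from 1.72 (*Thsd7b*) to 3.86 (*Lrfn5*). Of 674 higher calls tested there, 663 kept their direction and 314 their call. The difference of *Thsd7b* was 1.95 in replicate B alone and 3.23 in replicate A alone.

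The 8 lower genes of largest difference that passed the same rule were *Hs3st3a1*, *Sall1*, *Actc1*, *Cryab*, *Sema3d*, *Hoxa13*, *Matn4* and *Acan*. *Hoxa13*, which marks the autopod, stood at 3.10 and 3.45 CPM against 22.9 and 21.6 (log2 difference -2.81 ± 0.27), and was detected in 6.85% and 6.78% of gated cells, against 29.9% and 24.7% of depth-near cells. *Sall1*, a zinc finger factor of the distal limb, stood at 1.94 and 0.986 against 12.1 and 13.4 (-3.09 ± 0.38). The heparan sulfate sulfotransferase *Hs3st3a1* stood at 1.16 and 0.986 against 12.6 and 13.9 (-3.63 ± 0.41). The axon guidance ligand *Sema3d* differed by -2.83, the cartilage genes *Matn4* and *Acan* by -2.76 and -2.73, and *Actc1* and *Cryab*, both abundant in muscle, by -3.04 and -3.02. *Actc1* was detected in 6.85% and 22.0% of gated cells and in 12.1% and 10.5% of the others, so in replicate B more of the gated cells held a UMI although their summed level was lower, and after thinning to 3000 UMIs the shares in B were 2.95% and 6.22%. In none of the 8 did a library of the gated cells reach a library of the others, which the choice by direction and size favours in advance. All 8 stayed lower against depth-near cells. Of 858 lower calls tested there, 848 kept their direction and 400 their call. The size moved with the setting, for example for *Actc1*, to -2.12 against depth-near cells and to -5.57 with *Tnmd* at 0. For *Acan* it moved to -2.16 in replicate B alone and -3.45 in replicate A alone. Against depth-near cells *Cryab* was at -2.27 and *Matn4* at -2.16, and *Cryab* was at -2.15 without the top 10% of cells by UMIs.

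**Figure D2:**
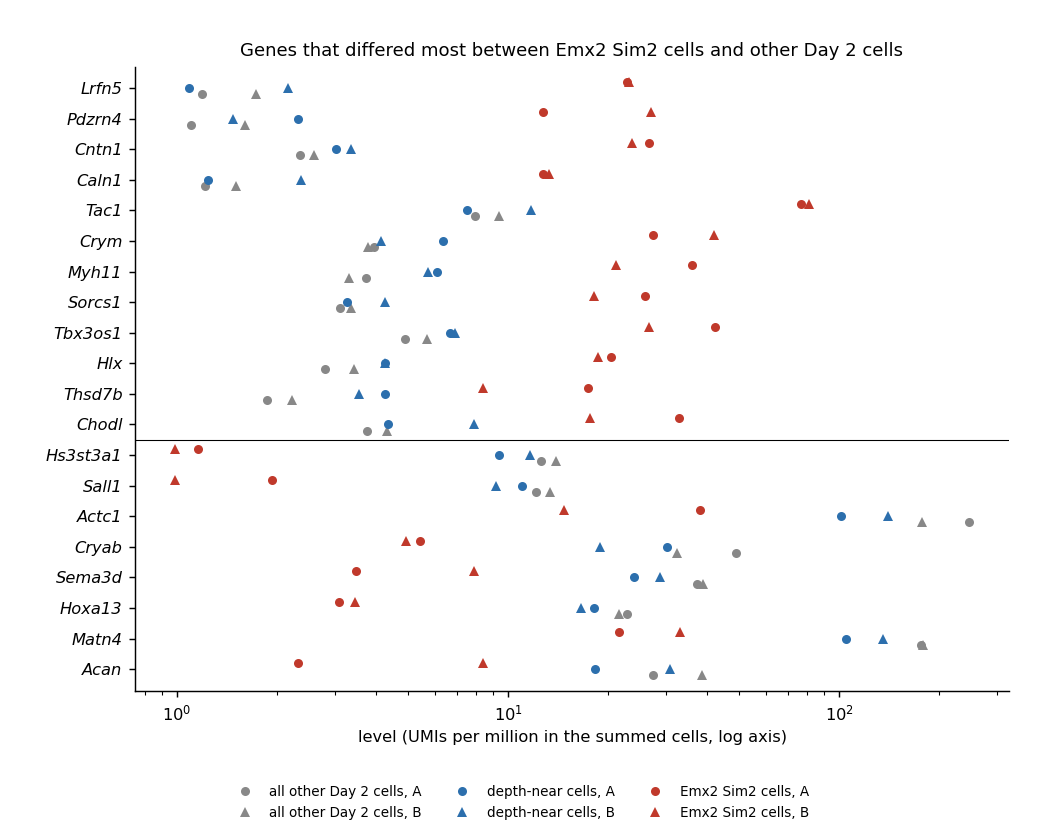
Level in CPM (log axis) of the 12 higher and 8 lower genes of largest difference in Emx2 Sim2 cells that passed the rule on level, detection and direction in both libraries, 1 point per replicate for the gated cells (red), depth-near cells (blue) and all other Day 2 cells (grey). *Tac1* is at 76.7 and 81.3 in the gated cells and at 7.51 and 11.7 in depth-near cells. No red point lies among the grey points of its gene, which the choice by direction and size favours in advance.

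Of 10 proximal limb genes tested, 5 were higher (*Meis2*, *Meis3*, *Shox2*, *Meis1*, *Irx5*) and 3 lower (*Hoxa10*, *Hoxd9*, *Hoxd10*), beside 4.23% and 5.39% of all genes, with a median of 0.35 beside -0.04. *Meis2*, a TALE homeodomain factor of proximal limb segments, stood at 225 and 197 CPM against 60.6 and 77.2 (log2 difference 1.60 ± 0.09), and *Shox2*, a homeobox factor of the upper limb skeleton, at 341 and 419 against 130 and 144 (1.44 ± 0.07). For both genes the libraries of the gated cells lay above those of the others, which the choice of called genes favours in advance. The whole list summed to 806 and 832 CPM in the gated cells against 484 and 510 in the others. *Meis2* and *Shox2* made up most of the sum in the gated cells, and the rest of the list did not sum higher there. Their detection was higher at equal depth as well, since after thinning to 3000 UMIs *Meis2* was seen in 40.2% and 35.9% of gated cells against 11.3% and 14.2% of the others, where 82.2% and 74.6% against 32.4% and 29.9% had a UMI before thinning. Against depth-near cells *Meis1*, *Meis2* and *Shox2* stayed higher, while *Meis3* (0.91, adjusted p 0.235 in the edgeR test) and *Irx5* (0.60, adjusted p 0.256) did not pass. Of the HOX genes, *Hoxa10* stood at 51.9 and 61.6 against 107 in both replicates (-0.95 ± 0.11), and *Hoxd10* did not pass against depth-near cells (-0.50, adjusted p 0.0655 in the edgeR test), which left 3 higher and 2 lower of 10.

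Distal and marginal patterning genes were mixed, and are read beside 4.23% higher and 5.39% lower of all genes, or 2.76% and 3.53% against depth-near cells. Of the 5 middle and distal HOX genes, *Hoxa11* (-1.06 ± 0.16) and *Hoxa13* were lower, and *Hoxd13* stood at 27.5 and 21.7 against 31.5 and 30.3 and did not pass. *Hoxd12* was called higher against depth-near cells (0.85) and not against all others (0.22). In the posterior list of 10 tested, *Tbx2* and *Tbx3* were higher and *Sall1*, *Grem1* and *Ptch1* lower, and the same 5 of 9 were called against depth-near cells. *Tbx3* stood at 149 and 166 against 38.2 and 41.7 (1.95 ± 0.10), and *Tbx2* at 47.2 and 36.5 against 9.29 and 9.68 (2.12 ± 0.16). *Grem1*, a BMP antagonist, stood at 1.16 and 1.97 against 12.2 and 12.6 (-3.05 ± 0.39). *Hand2*, a posterior bHLH factor, stood at 78.2 and 73.4 against 76.3 and 84.1 and did not pass. The dorsal factor *Lmx1b* was higher (27.9 and 34.5 against 13.7 and 15.7, 1.05 ± 0.16) and *Lhx2* lower (-2.53 ± 0.31). Antisense RNAs were read with care, since *Emx2os* and *Emx2* overlap over 264 bases (chr19:59458372-59458635) and *Tbx3os1* and *Tbx3* over 697 bases (chr5:119670669-119671365). *Emx2os* stood at 14.3 and 11.3 against 2.16 and 2.93 (2.34 ± 0.34).

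Cartilage genes were low throughout. Of 16 tested, 15 were lower and none higher, against a background of 5.39% lower, with a median of -1.88, and depth-near cells gave 15 of 15 lower with a median of -1.45. *Col2a1*, the fibril collagen of cartilage, stood at 126 and 204 CPM against 614 and 709 (-2.06 ± 0.06), *Col9a1* at 108 and 92.7 against 431 and 470 (-2.19 ± 0.07), and *Sox9*, the chondrogenic master factor, at 182 and 153 against 367 and 407 (-1.23 ± 0.07). *Snorc*, the gene that did not pass, held few UMIs. Although reduced, cartilage transcripts were not absent, and *Col2a1* was detected in 74.0% and 69.5% of gated cells against 87.7% and 88.5% of depth-near cells. Per cell, the summed list had a median of 6.46 and 3.84 UMIs per 10000, against 13.4 and 17.5 in depth-near cells, and the distributions overlapped.

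**Figure D3:**
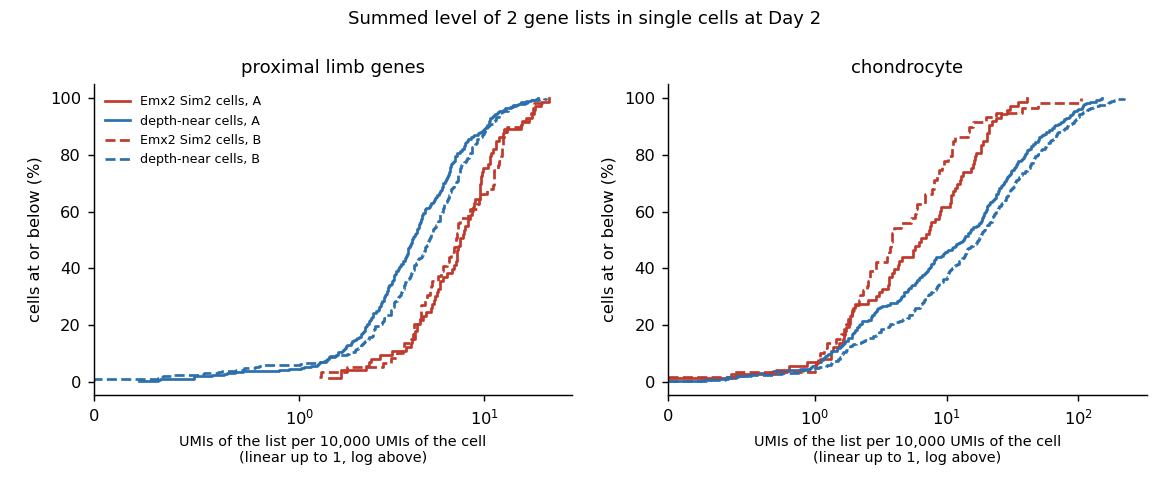
Cumulative share of cells (percent) by the summed UMIs of the proximal limb list (left) and the chondrocyte list (right) per 10000 UMIs of the cell (linear up to 1, log above), for Emx2 Sim2 cells (red) and depth-near cells (blue), replicate A solid and B dashed. The proximal list has its median at 7.42 and 7.04 in the gated cells and at 4.07 and 5.01 in depth-near cells, and the chondrocyte list is shifted to the left in the gated cells. The proximal sum is weighted by its abundant genes *Meis2* and *Shox2*, and some other genes of that list were lower in the gated cells.

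Tendon genes gave a mixed picture, with 4 of 17 higher and 3 lower (*Tnmd* left out), beside 4.23% and 5.39% of all genes, and a median of 0.20. Against depth-near cells 4 of 15 were higher and 1 lower, beside 2.76% and 3.53%. Among the higher ones were *Scx*, the transcription factor of tendon progenitors (300 and 249 CPM against 137 and 126, 1.03 ± 0.07), *Col3a1* (667 and 721 against 221 and 255, 1.52 ± 0.05) and *Col1a2*. *Mkx*, a homeobox factor of tendon maturation, *Col1a1* and *Egr1* were lower, and of these *Col1a1* alone stayed lower against depth-near cells. *Fmod* (4.26 and 6.41) and *Dcn* (4.65 and 3.94), proteoglycans of differentiated tendon, were scarce in the gated cells and did not pass. *Scx* was detected in 97.3% and 89.8% of the gated cells and in 76.2% and 72.2% of depth-near cells.

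Several of these genes were seen in the same cells. *Meis2* and *Shox2* were both detected in 76.7% and 69.5% of the gated cells against 36.4% and 39.7% of depth-near cells, and with *Scx* and *Tbx3* added the shares were 68.5% and 61.0% against 23.6% and 24.1%. Taken singly, *Meis2* was in 82.2% and 74.6% of the gated cells, *Shox2* in 91.8% and 89.8% and *Tbx3* in 87.7% and 86.4%. Genes detected this often meet in many cells even if unrelated. A link between them within the gated cells was not tested. The nearest cells were found from 30 principal components of 2000 variable genes without the 3 gate genes. Among the 15 nearest cells of a gated cell, 12.7% and 7.46% were gated cells, against 1.30% and 1.33% around depth-near cells, and 56 of 73 and 39 of 59 had at least 1. A further 23.4% and 26.1% of their neighbours had 2 or more *Tnmd* UMIs, so the larger part of the neighbourhood was outside the gate.

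Lists of the joint and of connective tissue and muscle are read beside 4.23% higher and 5.39% lower of all genes, and 2.76% and 3.53% against depth-near cells. Of 10 joint interzone genes, 1 was higher (*Sulf1*) and 6 lower at a median of -0.80, and against depth-near cells 1 of 9 was higher and 3 lower at a median of -0.52. *Gdf5*, the defining ligand of joints, stood at 7.74 and 5.92 against 22.7 and 20.1 (-1.67 ± 0.22), yet its difference from depth-near cells, -0.80, did not pass (adjusted p 0.0946 in the edgeR test). The interdigital list had *Aldh1a2* higher and *Hoxa13*, *Msx1*, *Bmp7* and *Msx2* lower of 9 tested. Of the muscle connective tissue list, *Ebf2*, *Tbx18* and *Ebf3* were higher and *Osr2* and *Tcf4* lower of 11, *Tcf4* not without the block. The myogenic list had 6 of 11 lower, among them *Myod1* at 1.16 and 7.89 against 18.6 and 13.9 (-2.00 ± 0.28), a factor that commits cells to muscle. Per cell the summed myogenic list had a median of 0 in the gated, depth-near and other cells of both replicates. The share of cells with 2 or more UMIs of this list was not lower in the gated cells, which were deeper, than in the others (13.7% and 15.3% against 10.6% and 10.7%).

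Of 16 BMP pathway genes, 12 were lower and none higher with a median of -0.73, beside 5.39% lower of all genes, and 10 of 14 were lower against depth-near cells, beside 3.53%. They include ligands (*Bmp4* at 58.5 and 47.8 against 85.9 and 84.7, *Bmp7*), antagonists (*Grem1*, *Nog*, *Bmper*), the decoy receptor *Bambi* and the target genes *Id1* (400 and 356 against 614 and 556, -0.66 ± 0.05), *Id2* and *Id3*. In the WNT list 6 of 19 were lower, namely the secreted inhibitors *Frzb*, *Dkk1*, *Sfrp2* and *Wif1*, the nuclear effector *Lef1* and *Dkk3*, and *Wnt11* was higher (7.74 and 9.37 against 3.91 and 3.08, 1.25 ± 0.34). The FGF receptors *Fgfr2*, *Fgfr3* and *Fgfr4* were lower and *Spry4* higher of 15 tested, the last not against depth-near cells.

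Retinoic acid genes moved in both directions. *Aldh1a2*, the enzyme that makes retinoic acid, stood at 63.1 and 46.8 against 20.6 and 21.9 (1.36 ± 0.12), and the binding protein *Crabp2* was higher too. *Cyp26b1*, which degrades retinoic acid, stood at 16.3 and 10.8 against 46.4 and 51.2 (-1.84 ± 0.16), and *Crabp1* at 41.8 and 37.0 against 78.9 and 75.3 (-0.99 ± 0.12). *Rarg*, *Dhrs3* and *Rdh10* were lower as well, which makes 3 higher and 5 lower of 14, beside 4.23% and 5.39% of all genes, with a median of 0.11. Against depth-near cells 3 of 13 were higher and 3 lower, beside 2.76% and 3.53%.

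Guidance and adhesion genes had 8 higher and 6 lower of 20, beside 4.23% and 5.39% of all genes, and 7 and 5 against depth-near cells. *Pcdh17*, a protocadherin, stood at 95.6 and 88.2 against 26.4 and 29.4 (1.70 ± 0.11), *Sema3a*, a repulsive guidance ligand, at 84.8 and 106 against 44.2 and 47.0 (1.03 ± 0.11), and N-cadherin (*Cdh2*) at 160 and 164 against 85.2 and 86.2 (0.89 ± 0.09). The netrin receptor *Dcc* was scarce, 10.1 and 9.37 against 2.17 and 2.35 (2.08 ± 0.37). The receptors *Robo1*, *Robo2*, *Unc5c* and *Nrp1* were lower. Of 12 Eph receptors and ephrins, *Ephb1*, *Epha3*, *Epha4* and *Efnb1* were higher and *Efna1* lower, and *Epha3* and *Epha4* alone kept a call against depth-near cells. The neural list gave *Tubb3* (27.9 and 28.1 against 8.71 and 6.21, 1.88 ± 0.19) and *Elavl4* higher, while *Sox10*, *Foxd3*, *Elavl3* and *Dct*, its glial, neuronal and melanocyte genes, stood at 0 in at least 1 replicate.

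The calls of contractile and mitotic genes changed with the depth of the comparison cells, where 4.23% of all genes were higher and 5.39% lower than in all other cells, and 2.76% and 3.53% than in depth-near cells. Of 7 contractile genes, 4 were higher than in all other cells (*Actg2*, *Myl9*, *Acta2*, *Tagln*) and none lower, while against depth-near cells *Actg2* alone was higher and *Cnn1* and *Tpm1* were lower. *Tagln*, an actin-binding protein, stood at 2052 and 2132 CPM in the gated cells, at 1861 and 1681 in all others and at 2562 and 2112 in depth-near cells, so replicate A lay below depth-near cells and replicate B slightly above, and that difference did not pass (adjusted p 0.178 in the edgeR test). Of 12 genes of the G2 and M phases, 8 were higher with a median of 0.27, and against depth-near cells none was called and the median was -0.04. In the S phase list 1 of 12 was lower (*Rrm2*). Genes of the response to cell dissociation were lower in 6 of 11 cases, *Fos* at 290 and 186 against 558 and 465 (-1.15 ± 0.06), and 4 of 10 against depth-near cells. The part of dissociation in the other differences was not tested. Without the block, 2 contractile and 3 G2 and M phase genes were higher, no S phase gene was called and 4 dissociation genes were lower.

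**Figure D4:**
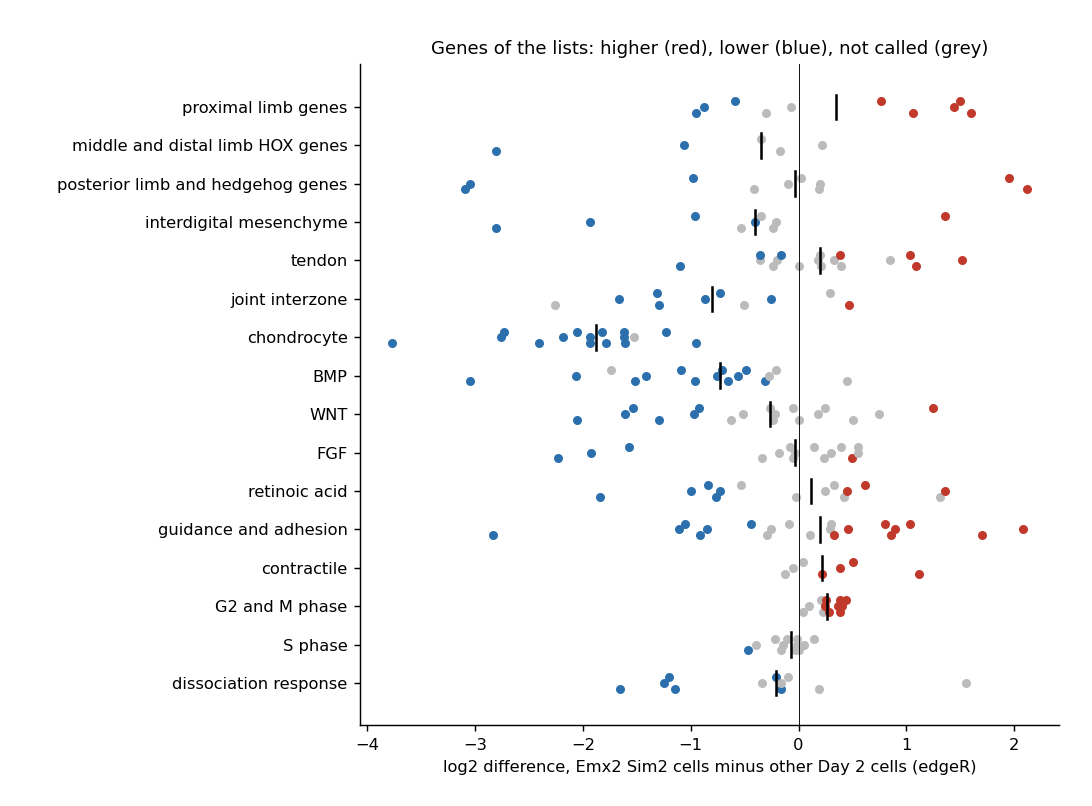
Log2 difference between Emx2 Sim2 cells and other Day 2 cells for the genes of 16 lists, 1 point per gene, red where called higher, blue where called lower and grey where not called, with a black bar at the list's median. Genes with 0 UMIs in the gated cells are not drawn. The chondrocyte list lies at a median of -1.88 with 15 of 16 lower, and the proximal limb list is divided between 5 higher and 3 lower.

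To ask what cells with both genes had beyond cells with 1 of them, the gated cells were compared with cells that carried *Emx2* without *Sim2* (368 and 468 cells) or *Sim2* without *Emx2* (350 and 353), all with fewer than 2 *Tnmd* UMIs. Median depth was 30218 and 20463 UMIs in the first and 27284 and 25500 in the second. Against *Emx2* alone, 102 genes (0.752% of 13557) were higher and 164 (1.21%) lower, 1.96% in either direction. *Tac1* stood at 8.54 and 10.2 CPM in cells with *Emx2* alone (log2 difference 3.03 ± 0.11), *Crym* at 2.68 and 3.66 (3.38 ± 0.28) and *Cntn1* at 1.84 and 3.29 (3.26 ± 0.27). *Sorcs1* and *Lrfn5* completed the 5 largest. *Tbx3* (50.8 and 49.3, 1.59 ± 0.09), *Shox2* (218 in both, 0.73 ± 0.08) and *Scx* (177 and 179, 0.56 ± 0.07) were also higher in the gated cells, whereas *Nr2f1* stood at 20.1 and 20.9 in cells with *Emx2* alone, with a log2 difference of 0.21 ± 0.13. The lowest were *Hoxa13*, *Cd44*, the cell cycle inhibitor *Cdkn1a*, *Crabp1* and the cartilage gene *Cnmd*, the last not called without the block, and 9 of 16 chondrocyte genes were lower, or 4 without the block.

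Against *Sim2* alone, 275 genes (2.03%) were higher and 280 (2.07%) lower, 4.09% in either direction. *Emx2os*, which overlaps the gate gene *Emx2*, led (0.784 and 1.14 in cells with *Sim2* alone, 3.75 ± 0.46), followed by *Tac1* (11.8 and 15.1, 2.54 ± 0.11), *Lrfn5*, the serpin *Serpina3g* and *Pdzrn4*. The 5 lower genes of largest difference are known from muscle. *Myod1* stood at 64.7 and 36.8 in cells with *Sim2* alone and at 1.16 and 7.89 in the gated cells (-3.66 ± 0.79), and *Fitm1*, *Mrln*, *Cdh15* and *Chrna1*, all genes of muscle cells, had log2 differences from -3.38 to -5.15. Cells with *Sim2* alone also had more cartilage RNA, with 15 of 16 chondrocyte genes lower in the gated cells. *Meis2* stood at 124 and 182 there and did not pass (adjusted p 0.0898 in the edgeR test). Both comparisons use the same gated cells, so their lists are not independent.

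**Figure D5:**
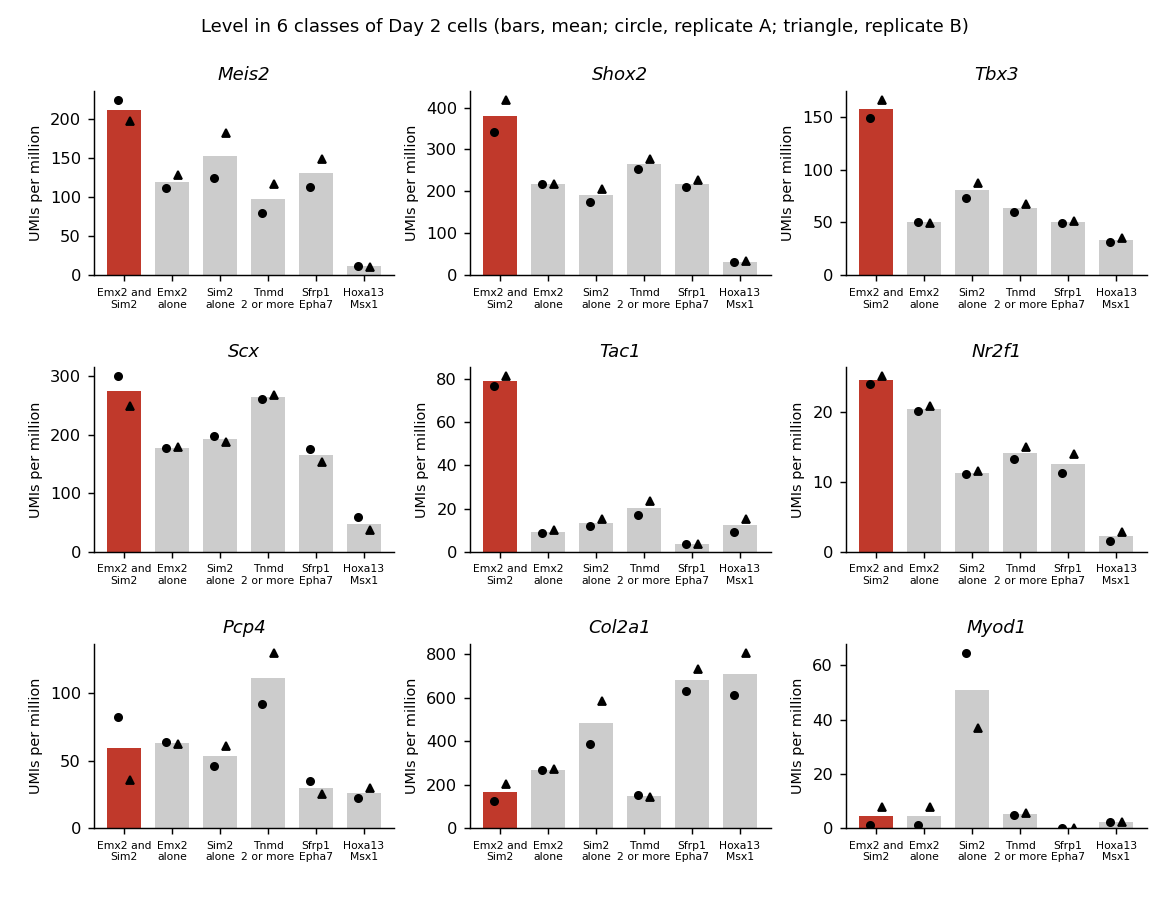
Level of 9 genes in CPM in 6 classes of Day 2 cells, with bars at the mean of the replicates, circles for replicate A and triangles for replicate B. *Tac1* is at 76.7 and 81.3 in cells with both genes and at most 23.3 in any other class, *Myod1* is highest in cells with *Sim2* alone, and *Pcp4* is highest in cells with 2 or more *Tnmd* UMIs.

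The gated cells were then set beside 3 other mesenchymal gates of the same cultures, namely cells with 2 or more *Tnmd* UMIs (419 and 425 cells), with 2 or more UMIs of both *Sfrp1* and *Epha7* (581 and 420), and with *Hoxa13* and at least 2 UMIs of *Msx1* (331 and 224, interdigital type). These are the numbers used after cells of the Emx2 Sim2 gate and cells in more than 1 of the gates were left out, from 456 and 459, 631 and 461, and 348 and 233. The 26 and 30 cells with *Emx2*, *Sim2* and 2 or more *Tnmd* UMIs stayed among the *Tnmd* cells unless they also met another gate. No gated cell met the interdigital gate, which 3.92% and 2.41% of the other Day 2 cells met, so few were to be seen among 73 and 59 cells. The Sfrp1 Epha7 gate was met by 12 of 73 and 6 of 59 gated cells (16.4% and 10.2%), against 6.97% and 4.70% of the other cells. *Tnmd* cells were the closest by the count of calls, with 315 genes higher (2.35% of 13402) and 485 lower (3.62%) in the gated cells, or 5.97% in either direction. *Scx* did not differ by more than its error, 262 and 269 CPM in *Tnmd* cells (log2 difference -0.01 ± 0.10). Higher in the gated cells were *Crym* (2.33 ± 0.19), the neuropeptide neuromedin U (*Nmu*, 19.7 and 22.2 against 4.52 and 4.62, 2.13 ± 0.26), *Caln1*, *Pdzrn4*, *Zfp804a*, *Meis2* (80.0 and 116 in *Tnmd* cells, 1.09 ± 0.13) and *Tbx3* (1.25 ± 0.07). Lower were *Fmod* (18.9 and 22.1 in *Tnmd* cells, -2.02 ± 0.22), the WNT inhibitor *Frzb*, *Fgf5*, *Crabp1* and *Igfbp7*. All 7 contractile genes were lower, or 3 without the block, with *Acta2* at 2297 and 2028 against 3638 and 2652 (-0.58 ± 0.06), a difference that did not pass without the block (adjusted p 0.126 in the edgeR test). *Pcp4* stood at 92.2 and 130 in *Tnmd* cells, above the gated cells in both replicates.

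Against Sfrp1 Epha7 cells, 894 genes (6.67%) were higher and 682 (5.09%) lower, or 11.8%. *Chodl*, *Lrfn5*, *Crym*, *Tac1* and *Pdzrn4* led the higher genes, with *Tac1* at 3.56 and 3.68 in Sfrp1 Epha7 cells (4.47 ± 0.16), and *Il1rn*, *Hs3st3a1*, *Thsd4*, the BMP antagonist *Chrdl1* and the decoy receptor *Tnfrsf11b* led the lower ones. *Meis1* (27.7 and 28.7 there) did not pass, while *Meis2* (113 and 149 there, 0.74 ± 0.12) did, and *Osr1*, a factor of irregular connective tissue, was lower (29.8 and 35 against 51.8 and 55.3, -0.71 ± 0.12). In this comparison 15 of 16 chondrocyte genes were lower. Against interdigital cells, 1135 genes (8.47%) were higher and 855 (6.38%) lower, or 14.8%. *Hoxc4*, *Thsd7b*, *Pdzrn4*, *Nmu* and *Myh11* led the higher genes and *Tfap2b*, *Zic2*, *Adcyap1*, *Zic5* and *Ifitm1* the lower ones. *Meis2* stood at 12.3 and 10.2 in interdigital cells (4.26 ± 0.18) and *Shox2* at 32 and 33.6 (3.57 ± 0.08), while *Aldh1a2* was higher in the interdigital cells (162 and 229, -1.76 ± 0.23). Of the HOX genes not used for that gate, all 4 middle and distal ones were lower, as were 13 of 16 BMP genes.

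Cells that met the same gate at Day 10 gave a comparison in libraries that the Day 2 rule had not used. With 27 and 29 cells, 499 genes (3.03% of 16444) were higher and 580 (3.53%) lower than in the other Day 10 cells, 6.56% in either direction. Day 7 held too few cells for a fit. *Meis2* stood at 57.4 and 101 CPM at Day 10 against 16.3 and 19.0 (log2 difference 2.04 ± 0.19), *Shox2* at 73.6 and 108 against 35.8 and 37.5 (1.21 ± 0.18) and *Tbx3* at 20.9 and 29.7 against 9.69 and 9.58 (1.30 ± 0.30), all called higher as at Day 2. *Emx2os* was called higher too, at 6.98 and 9.59 against 0.954 and 0.989 (3.0 ± 0.75). It overlaps *Emx2*, which also chose the Day 10 cells, so its rise is not separate from the gate. *Hoxa13* was lower (1.55 and 4.79 against 11.5 and 10.7, -1.96 ± 0.50), though not without the block (adjusted p 0.0805 in the edgeR test). Of the chondrocyte genes 16 of 16 were lower, with a median of -1.74, and 5 of 16 without the block. At Day 7 the levels of the 7 and 10 gated cells were 41.7 and 77.9 for *Meis2* against 22.7 and 21.1, and 20.8 and 28.8 for *Tbx3* against 7.74 and 7.47.

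Other Day 2 differences were not seen at Day 10. *Tac1* stood at 0 in both Day 10 replicates of the gated cells and at 0.626 and 0.645 in the others, *Lrfn5* at 0 and 0.959, and *Scx* was not called (-0.46). *Nr2f1* stood at 5.43 and 0.959 against 2.41 and 2.28, and *Pcp4* at 4.65 and 2.88 against 17 and 13.2. The gated sums of Day 10 held 1290121 and 1043243 UMIs. The values of *Tac1* and *Lrfn5*, and that of *Nr2f1* in replicate B, thus lie at the floor and rest on few or no UMIs. Among genes that passed the rule on level, detection and direction in both libraries, the largest differences at Day 10 were those of *Esm1*, AI593442, AW551984, *Ifi203* and *Fgf5* upward and of *Ibsp*, *Ihh*, *Slc8a3*, *Col10a1* and *Gdf10* downward. *Esm1* did not pass without the block (adjusted p 0.0606 in the edgeR test). All 12 genes of the G2 and M phases were higher at Day 10, and 10 of 12 without the block, beside 3.03% of all genes with the block, with a median of 1.22. The Day 10 gated cells were deeper than the others, at a median of 46341 and 32687 UMIs against 29295 and 27869, and no depth-near comparison was made there or for the other classes, so the part of depth was not tested. Of 7 myogenic genes 6 were called higher there and none without the block. For *Actc1* the difference rests on replicate B, as it had 0 UMIs in replicate A and stood at 109 CPM in replicate B. The other myogenic genes are not given by replicate here.

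Of 671 genes higher at Day 2 and tested at both times, 131 were also higher at Day 10, which is 19.5% of the Day 2 list and 26.6% of the 493 genes of the Day 10 list, beside 3.17% of all genes called higher at Day 10, and 29 were lower. Of 880 genes lower at Day 2, 214 were also lower, 24.3% of the Day 2 list and 37.4% of the 572 of Day 10, beside 3.68% of all genes, and 66 were higher. A test of the change itself, added after the values were seen, called 630 of 17272 genes (3.65%), of which 192 (1.11%) had a higher and 438 (2.54%) a lower difference at Day 2 than at Day 10.

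Windows of 250 bases upstream of RefSeq transcription starts (GRCm38.p6) were searched for 3 core motifs on both strands, because genes that stand high together with MEIS, T-box and homeodomain factors invite a look at their starts. Of the 12 genes named higher, 10 had 13 windows. The homeodomain core TAATTA was in 4.84% of 32851 windows and in 2 of the 13 (*Pdzrn4*, *Tac1*), the MEIS core TGACAG in 15.9% and in 3 (*Chodl*, *Cntn1*, *Pdzrn4*), and the T-box letters AGGTGTGA in 1.12% and in 0. A match is a description of letters and shows no binding. A window of *Pdzrn4* within the gene's body, which holds both kinds of match, and that of *Chodl* are printed 5′ to 3′ as examples, with matches in capitals, and overlap no exon. In the first, TAATTA begins 140 bases upstream of the start, and the reverse of the MEIS core begins at 122 and 78 bases. In the second the reverse of the MEIS core begins 237 bases upstream.
*Pdzrn4*, chr15:92596859-92597108, plus strand: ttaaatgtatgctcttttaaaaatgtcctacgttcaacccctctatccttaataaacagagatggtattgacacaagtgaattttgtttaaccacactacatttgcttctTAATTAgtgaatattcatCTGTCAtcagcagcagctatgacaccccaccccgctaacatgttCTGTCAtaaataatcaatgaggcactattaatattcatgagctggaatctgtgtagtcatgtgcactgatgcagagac
*Chodl*, chr16:78930698-78930947, plus strand: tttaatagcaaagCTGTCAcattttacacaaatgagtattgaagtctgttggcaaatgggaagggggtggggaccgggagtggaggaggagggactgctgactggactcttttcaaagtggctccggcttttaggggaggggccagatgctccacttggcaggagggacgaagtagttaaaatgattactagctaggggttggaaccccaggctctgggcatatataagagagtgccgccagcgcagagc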

How the data were processed

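The authors aligned 10x Genomics 3′ reads to GRCm38 (mm10) with Cell Ranger 6.1.2, which uses STAR, and the deposited matrices hold whole-number UMI counts of 32286 features per barcode, without normalization and before the Seurat 4.1.0 filters. From these counts, cells were filtered and gated as the report states, UMIs were summed per class and library, and sums were tested with edgeR 4.0.16 (filterByExpr, TMM, quasi-likelihood test, Benjamini-Hochberg) in R 4.3.3. The library was a block because both classes come from the same 2 libraries. Levels are CPM of the class sum, not per length, since the reads come from 3′ ends. DESeq2 1.42.0 was an alternative, and neighbours came from scanpy 1.11.5. Doublets were not called: cells over 7500 genes were left out, and an alternative dropped the top 10% by UMIs. The 12 higher and 8 lower genes named are those of largest difference among calls moving the same way in both libraries, with at least 10 CPM in the higher class on average over the libraries and detection in at least 10% of its cells in both libraries (5 each in other comparisons). The members and lists were chosen with earlier results of these data known, and the test of Day 2 against Day 10 was added after the values were seen. On simulated sums for the comparison with other Day 2 cells, changes of known size were recovered, which checked the script. The labels give 2 independent cultures per day. In the blocked fits the p-values rest on how the difference between classes varies between these 2, with that spread shared across genes. Some genes of the lists enter the counts and are not reported here by name.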

Additional observations from a re-analysis of the deposited data

Results flagged for a closer look

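The change between days comes from 1 fit of both days, so it can differ from the subtraction of the separate values for each day. Of the 22 genes named for Day 2, 7 had a difference between Emx2 Sim2 cells and the other cells that changed between Day 2 and Day 10 (edgeR interaction, adjusted p under 0.05), and 3 of these held under 10 UMIs in the gated cells at a time point and are not given. *Pdzrn4* was 3.8 higher at Day 2 and -0.77 at Day 10 on the log2 scale, a change of 4.51 (adjusted p 1.4841e-07). *Cryab* was -3.02 at Day 2 and 0.38 at Day 10, a change of -3.44 (adjusted p 7.6581e-12). *Actc1* was -3.04 at Day 2 and 5.27 at Day 10, a change of -8.6 (adjusted p 4.2608e-20), and its Day 10 level comes from replicate B, with 0 UMIs in replicate A. *Matn4* was -2.76 and -1.74, lower at both times, a change of -1.12 (adjusted p 0.040796). Over all genes this test called 192 (1.11%) with a higher and 438 (2.54%) with a lower difference at Day 2 of 17272.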

How the results depend on the processing

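In place of 700 higher and 892 lower genes, the comparison with other Day 2 cells gave 441 and 523 with no replicate block, 335 and 428 against depth-near cells, 320 and 545 with a gate of 2 UMIs of both genes, 453 and 570 without the top 10% of cells by UMIs, and 306 and 274 with DESeq2. The remaining settings stayed within 1.5 times, and 226 higher and 242 lower genes were called in the blocked, unblocked, depth-near and DESeq2 fits alike. Without the block, the other counts were 55 higher and 35 lower against *Emx2* alone, 149 and 125 against *Sim2* alone, 91 and 87 against *Tnmd* cells, 536 and 441 against Sfrp1 Epha7 cells, and 168 and 169 at Day 10, where the differences of *Col2a1* (adjusted p 0.0947 in edgeR) and *Esm1* no longer passed. The replicate pairing is given by design, as both classes share each library. The 20 genes named by size kept their calls in these settings, while the fold moved by over 1.5 times for some. With 2 UMIs of both genes the log2 difference was, for example, 4.98 for *Pdzrn4*, 3.97 for *Chodl*, 4.97 for *Lrfn5*, -4.85 for *Hoxa13*, -4.63 for *Sema3d* and -4.27 for *Matn4*. It was -5.57 for *Actc1* with *Tnmd* at 0 and -4.35 for *Acan* without the top 10% of cells. Without the block *Irx5*, *Msx2*, *Tcf4*, *Egr1*, *Rdh10*, *Spry4*, *Nrp1*, *Efnb1*, *Acta2*, *Tagln* and *Rrm2* lost their call against other Day 2 cells (adjusted p from 0.0632 for *Irx5* to 0.468 for *Msx2* in edgeR). The log2 difference of *Pcp4* was 0.30 against depth-near cells and ran from -0.083 without replicate A, where it reversed, to 1.41 without replicate B. The share of gated cells ran from 0.606% to 0.816% with a replicate left out. It was 0.0223% in replicate A and 0.0924% in replicate B after thinning to 3000 UMIs, and in replicate B 1.0% with a minimum of 10000 UMIs and 0.370% with the filter of the study. No count can be tested with 1 library left. The cause of these changes was not tested beyond what each setting removes.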
